A study of Homo sapiens with 9 samples.

Results

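The 40 genes described here are the autophagy and lysosome genes of the table, taken by gene symbol from its 34934 genes and features. They comprise 22 genes of the autophagosome, 15 genes of the lysosome and 3 transcription factor genes that are known to act on both. All 40 were present in the table, and 38 passed the filter on low counts. ATG9A and TFEB did not pass it. RNA had been sequenced from TC71, an established Ewing sarcoma cell line, after growth in NSG mice, an immunodeficient strain that lacks mature T, B and NK cells but keeps myeloid and red blood cells. Per the series' design text, 100 cells in diluted Matrigel were injected subcutaneously in the flank, and tumour cells were sorted from marrow, lung and the flank mass at a tumour diameter of 1.5 cm. There were 4 bone marrow metastasis libraries, 4 lung metastasis libraries and 1 primary tumour library. All groups shared the cell line, the host strain and the route of injection, and no genotype, drug or age of the mice is given in the labels. Nothing in the labels ties libraries to individual mice, so p-values measure only the spread between these samples.

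Autophagy wraps portions of cytoplasm in a double membrane, the autophagosome, which then fuses with a lysosome, where acid hydrolases break the contents down. A kinase complex around ULK1 starts the process, a lipid kinase complex around BECN1 and PIK3C3 marks the membrane, and a conjugation system attaches proteins of the ATG8 family to it. Cargo receptors such as SQSTM1 bind these ATG8 proteins, and the transcription factors TFEB, TFE3 and MITF are known to switch on lysosome and autophagy genes through a CACGTG element.

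Promoter sequences are shown for the members that carry that element, since it is the element through which those transcription factors are known to act. RefSeq promoter windows (GRCh38.p14, 250 bases before to 50 bases after the start of a gene) were matched for 34 of the 40 members. CACGTG, which reads the same on both strands, was found in 7 of the 34 members and in 8.77% of 27305 genes with a window. The 7 were 5 of 10 lysosome members with a window (LAMP1, CTSA, CTSD, MCOLN1 and ATP6V0D1) and 2 of 21 autophagosome members (ATG3 and ATG14). None of the 3 transcription factor genes had it. RB1CC1, LAMP2, CTSB, HEXA, ATP6V1A and PSAP had no window. Each stretch is written 5′ to 3′ on the strand of its gene, with CACGTG in capitals. They lie at chr13:113297039-113297238 (LAMP1, plus strand), chr19:7522554-7522623 (MCOLN1, plus), chr20:45891290-45891318 (CTSA, plus), chr11:1763959-1763984 (CTSD, minus), chr16:67481201-67481226 (ATP6V0D1, minus), chr14:55411836-55411861 (ATG14, minus) and chr3:112561965-112561990 (ATG3, minus).
LAMP1: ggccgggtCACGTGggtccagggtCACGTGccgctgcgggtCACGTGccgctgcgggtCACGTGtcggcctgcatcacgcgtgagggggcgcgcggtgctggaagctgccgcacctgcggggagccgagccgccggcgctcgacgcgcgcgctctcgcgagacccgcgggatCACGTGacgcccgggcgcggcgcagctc
MCOLN1: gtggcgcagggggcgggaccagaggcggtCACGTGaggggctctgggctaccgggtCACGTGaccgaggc
CTSA: tgtCACGTGgcgccggagttCACGTGact
CTSD: cggccgcgccCACGTGaccggtccgg
ATP6V0D1: cccttatggtCACGTGaggcgcttgc
ATG14: aacaaaatccCACGTGactggctctc
ATG3: tttctcacgtCACGTGccgggagagt
LAMP1, which encodes an abundant glycoprotein of the lysosomal membrane, had copies that began 192, 176, 159, 142, 28 and 1 bases upstream of its start, the last of which runs past the end of the printed stretch. MCOLN1, the calcium channel of the lysosome, had copies 41 and 14 bases upstream. The 7 genes did not share a direction between sites: in bone marrow against lung, ATG3 and CTSD were higher, and the other 5 lower, with fitted log2 differences from -0.49 to 0.42, and the edgeR quasi-likelihood test called none of them (smallest Benjamini-Hochberg adjusted p 0.661). A match describes the letters in the window and not binding by a factor. In the GENCODE annotation the printed stretches of CTSA, CTSD, ATP6V0D1 and ATG3 lie wholly in exons of the same gene. For ATG14, 23 of 26 bases do.

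Totals per library ranged from 11549684 to 17910622 estimated counts. The 40 members together took between 0.203% and 0.277% of a library's counts, with the lowest share in the primary library. Of 12 markers of the Ewing sarcoma line, 11 exceeded 10 CPM (counts scaled to the depth of each library, with TMM factors) in at least 1 library. FLI1, the fusion partner of EWSR1 in this line, stood at 0 to 0.765 CPM. The cause was not tested, and a value near 0 for another gene carries the same limit. Since macrophages are rich in lysosomes, 15 macrophage and leukocyte markers were summed in each library. The sum was 2.28 to 10.4 CPM in bone marrow, 3.05 to 39.0 in lung and 4.22 in the primary library. CSF1R and MARCO had no counts in any library, and only PTPRC and CD68 exceeded 10 CPM, both in lung replicate 1. The 5 osteoclast markers summed to 0.291 to 3.34 CPM, with DCSTAMP at 0 throughout, and the 5 lung epithelium markers to 0.904 to 4.47 CPM, with SCGB1A1 at 0 throughout. Red cell markers summed to 3.63 to 161 CPM, with HBA1 at up to 130 CPM and ALAS2 at 0 throughout. Endothelium markers summed to 23.1 to 37.3 CPM, of which CDH5 alone measured 22.1 to 29.5 CPM and PECAM1 at most 2.21 CPM. Fibroblast markers, some of which tumour cells can also express, summed to 90.2 to 399 CPM, most of it from DCN and LUM. These sums thus rested on few genes. Between 7.0% and 8.09% of reads were assigned to mouse. All of these markers were counted as human genes, while the host cells were those of mice. Low sums therefore cannot show that host cells were absent.

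Between bone marrow and lung no member changed under edgeR's quasi-likelihood test at a Benjamini-Hochberg adjusted p of 0.05. The test called 0.00586% of the 17073 tested genes, that is 1 gene, so this comparison had few calls of any kind. At an unadjusted p of 0.05, 2 of 38 members passed (PSAP and NBR1), against 10.2% of all tested genes. DESeq2 called 1 member (PSAP, higher in bone marrow), against 2.74% of all genes in either direction and 1.76% higher, and limma voom called 0 members, against 0.0351%. Counts were also simulated with the spread of these libraries, and the changed genes were drawn only from those with higher mean counts. There edgeR called 2% of genes changed by 2-fold, 20% of those changed by 4-fold and 54% of those changed by 8-fold. It also called 3 unchanged genes. These rates do not hold for scarce members. In sorted cells sequenced in bulk, fewer cells of a type and less RNA per cell cannot be told apart.

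The autophagosome genes lay on both sides of 0 between the sites. Of 21 tested autophagosome members, 12 were higher in bone marrow and 9 were lower, and their median log2 fold change was 0.14. Of the 15 lysosome members, 9 were higher and 6 lower, with a median of 0.11. Across all tested genes 49.9% were higher and the median was 0.00. Averaged over members as log2(CPM + 1), the autophagosome level was 4.70, 4.71, 4.64 and 4.65 in bone marrow replicates 1 to 4, and 4.56, 4.48, 4.06 and 4.68 in lung. The lysosome level was 5.14, 5.26, 5.45 and 5.44 in bone marrow, and 5.44, 4.63, 5.29 and 5.06 in lung. The sites overlapped for both lists, and the primary library, at 4.50 and 5.13, lay inside the range of the lung libraries. Lung libraries were the more spread, with lung replicate 3 lowest for the autophagosome and lung replicate 2 lowest for the lysosome.

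**Figure D1:**
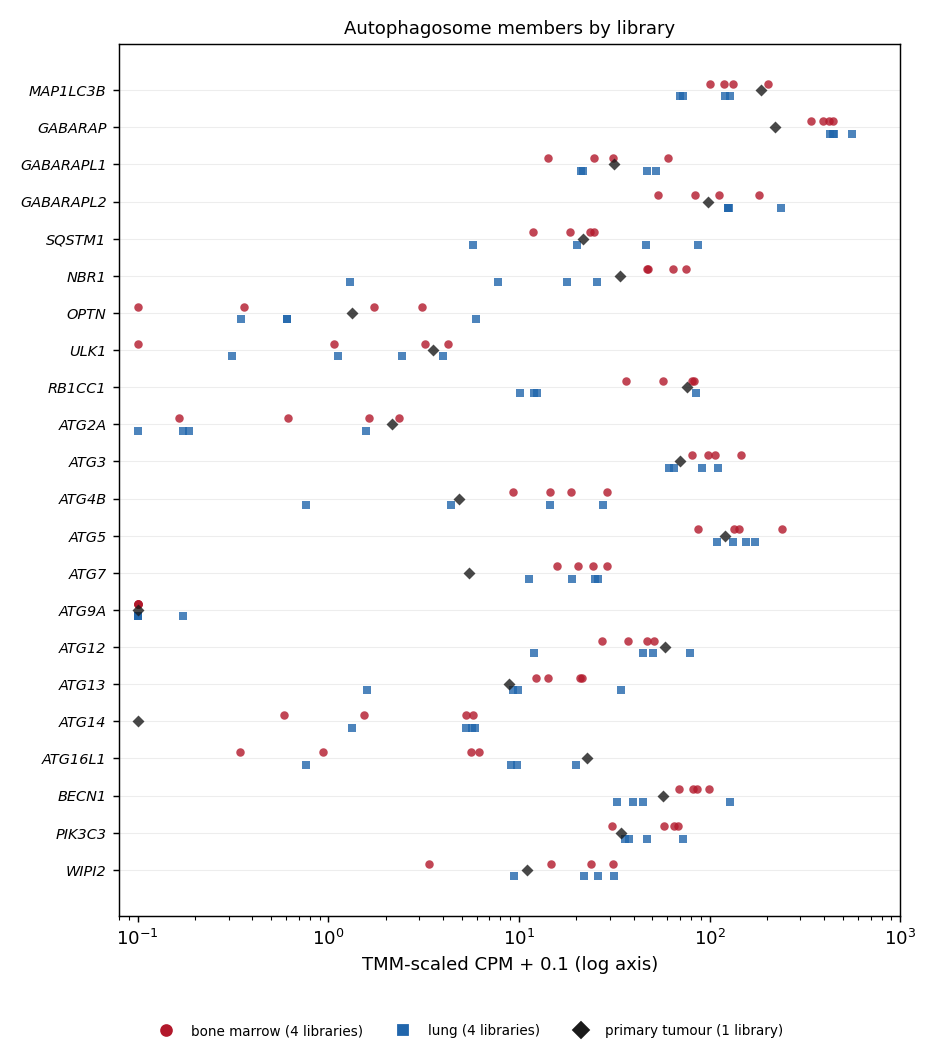
TMM-scaled CPM + 0.1 of the 22 autophagosome members on a log axis, 1 point per library (circles bone marrow, squares lung, diamonds primary tumour). The 4 bone marrow points of NBR1 lie above its 4 lung points, and GABARAP is highest of all by CPM, with the primary tumour at 220 CPM below the other 8 libraries.

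The ATG8 family holds the proteins that are conjugated to the autophagosome membrane. GABARAP (chr17:7240014-7242770, hg38) was the main transcript among the 4 family genes in the members. Per kilobase of its longest transcript, GABARAP stood first of the 40 members, at 252 CPM per kilobase over all 9 libraries. GABARAPL2 was the second at 127, MAP1LC3B stood at 46.7 and GABARAPL1 at 14.7. The levels per kilobase of these 4 genes were summed, without MAP1LC3A, MAP1LC3B2 and MAP1LC3C. Of that sum, GABARAP made up 59.3% ± 9.66 in bone marrow (SD, n = 4), 59.1% ± 8.09 in lung (SD, n = 4) and 42.6% in the primary library. MAP1LC3B made up 12.4% ± 4.23, 7.24% ± 1.27 and 21.9%.

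GABARAP measured 424, 444, 395 and 343 CPM in bone marrow replicates 1 to 4, and 558, 450, 429 and 445 CPM in lung. The bone marrow mean was 401 ± 44.0 CPM and the lung mean 471 ± 59.2 CPM (SD, n = 4 each). The sites overlapped only through bone marrow replicate 2 and lung replicate 3. In the fit this was a log2 fold change of -0.23 ± 0.17 (SE), with an adjusted p of 0.656 by edgeR's quasi-likelihood test, and it was -0.12 without lung replicate 1. The primary library, at 220 CPM, was lower than all 8 metastasis libraries. GABARAP shares exon sequence with AC120057.2 on its own strand and AC120057.3 on the opposite one.

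MAP1LC3B (chr16:87383995-87404779), which encodes the LC3B protein that is the usual marker of autophagosomes, measured 132, 99.9, 119 and 202 CPM in bone marrow and 120, 69.9, 72.3 and 128 in lung. Bone marrow replicates 1 and 4 were above all lung libraries, and the other bone marrow libraries lay inside the lung range. Means were 138 ± 44.5 and 97.7 ± 30.9 CPM (SD, n = 4), and the log2 fold change was 0.50 ± 0.32 (SE; edgeR adjusted p 0.584), or 0.26 without bone marrow replicate 4. Its primary value, 186 CPM, was exceeded only by bone marrow replicate 4. MAP1LC3B2, a near-identical copy, held up to 22.7% of the pair's counts. With both copies summed, the levels were 160 ± 46.6 CPM in bone marrow, 115 ± 32.2 in lung (SD, n = 4) and 202 in the primary library. In the annotation MAP1LC3B also shares exon sequence with FBXO31 on the opposite strand.

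The ratio of GABARAP to MAP1LC3B CPM, chosen after the values were seen, was 3.20, 4.44, 3.31 and 1.7 in bone marrow. In lung it was 4.64, 6.44, 5.93 and 3.46, and in the primary library 1.18. The primary library had the lowest ratio of the 9, and the sites overlapped. GABARAPL1 ranged from 14.1 to 60.6 CPM in bone marrow and from 21.0 to 52.2 CPM in lung, and GABARAPL2 from 53.4 to 181 CPM and from 125 to 236 CPM. Neither separated the sites.

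The 3 cargo receptors, which carry ubiquitin-tagged material to the autophagosome, did not share a direction. NBR1 (chr17:43170481-43211689) measured 47.4, 75.0, 63.9 and 46.7 CPM in bone marrow and 17.8, 1.196, 7.70 and 25.6 in lung. Every bone marrow library was above every lung library, and the primary library, at 33.8 CPM, lay between the sites. NBR1 was the only member of the 38 whose libraries did not overlap between the sites, against 5.87% of all tested genes (2.81% with bone marrow above and 3.06% with it below), so 1 of 38 is no more than that share. Its means were 58.3 ± 13.7 and 13.1 ± 10.8 CPM (SD, n = 4), the log2 fold change was 2.15 ± 0.76 (SE) and the adjusted p was 0.446 by edgeR's quasi-likelihood test, 0.0750 by DESeq2 and 0.234 by limma voom. In the annotation NBR1 shares exon sequence with AC060780.1 on the opposite strand, and without a stated strand setting their reads cannot be told apart.

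SQSTM1, the receptor known as p62, had the higher mean in lung, with overlapping libraries. It measured 11.8, 23.6, 18.3 and 24.7 CPM in bone marrow and 20.1, 86.9, 5.63 and 46.5 in lung, with 21.7 CPM in the primary library. The lung libraries covered the whole bone marrow range, and lung replicates 2 and 4 were the highest of all 9. The log2 fold change was -1.02 ± 0.73 (SE; edgeR adjusted p 0.639) and was -0.30 without lung replicate 2. OPTN, the remaining receptor, was scarce at 0 to 5.84 CPM.

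Of the ULK1 complex, RB1CC1, which encodes its scaffold FIP200, had the largest coefficient of variation between lung libraries, at 124%, while ATG13 had the largest ratio of highest to lowest, at 23.0. It measured 56.7, 36.4, 82.4 and 80.7 CPM in bone marrow, and 10.01, 84.8, 11.8 and 12.3 in lung. Lung replicate 2 was above every bone marrow library and the other 3 lung libraries were below all of them. Its log2 fold change was 1.11 ± 0.74 (SE; edgeR adjusted p 0.609). Without lung replicate 2 it was 2.49, with an edgeR adjusted p of 0.192. ATG13, the adaptor of the same complex, had its highest value, 34.3 CPM, in the same lung library, against 1.49 to 9.81 CPM in the other lung libraries and 12.1 to 21.3 CPM in bone marrow. The kinase ULK1 itself was low, at 0 to 4.14 CPM over the 9 libraries.

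The conjugation genes, which prime, activate and attach ATG8 proteins, were mostly well detected and overlapped between sites. ATG3, the conjugating enzyme, measured 97.5, 146, 80.6 and 107 CPM in bone marrow and 61.3, 91.0, 111 and 65.0 in lung. In the fit, the difference on the log2 scale was 0.39 ± 0.30 (SE; edgeR adjusted p 0.661), or 0.21 without bone marrow replicate 2. ATG5, whose product is joined to ATG12, ranged from 87.3 to 241 CPM in bone marrow and from 110 to 173 CPM in lung. ATG16L1, which places the ATG5 and ATG12 conjugate on the membrane, measured 6.07, 0.244, 0.834 and 5.48 CPM in bone marrow and 19.9, 8.93, 0.662 and 9.66 in lung. Lung replicate 3 was inside the bone marrow range, and the other 3 lung libraries were above it. The log2 fold change of ATG16L1 was -1.63 ± 1.15 (SE; edgeR adjusted p 0.634), or -1.01 without lung replicate 1. ATG7, the activating enzyme, ATG12 and the protease ATG4B also overlapped, with ATG4B running from 0.662 to 29 CPM.

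BECN1, PIK3C3 and ATG14 form the lipid kinase complex. BECN1 was even in bone marrow, at 69.0 to 99.7 CPM, and uneven in lung, where replicate 1 had 128 CPM and the other 3 had 32.6 to 44.8 CPM. PIK3C3, its kinase, ranged from 30.7 to 67.9 CPM in bone marrow and from 35.8 to 72.3 CPM in lung. WIPI2, which reads the lipid mark, ranged from 3.26 to 30.9 CPM in bone marrow and from 9.33 to 31.5 CPM in lung. The lipid transfer gene ATG2A stayed at or below 2.26 CPM, and ATG9A, the lipid scramblase of the growing membrane, had 1 count in 1 lung library and none in the other 8 libraries. ATG9A shares exon sequence with AC068946.2 on its own strand.

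The transcription factor genes were at the floor of detection or near it. TFEB reached at most 0.331 CPM, which was 4 counts, and had none in 4 of 9 libraries. TFE3 had none in 7 of 9 libraries, with 1.11 CPM in bone marrow replicate 3 and 0.281 CPM in lung replicate 2. These were 16 and 4 counts, and the fitted fold changes of TFE3 rest on them alone. MITF was detected in every library, at 1.26, 5.37, 3.20 and 12.2 CPM in bone marrow, 11.4, 0.352, 0.828 and 2.18 in lung and 3.38 in the primary library, with overlap between the sites. In a low-input library, molecules lost at preparation can also leave a gene at 0.

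**Figure D2:**
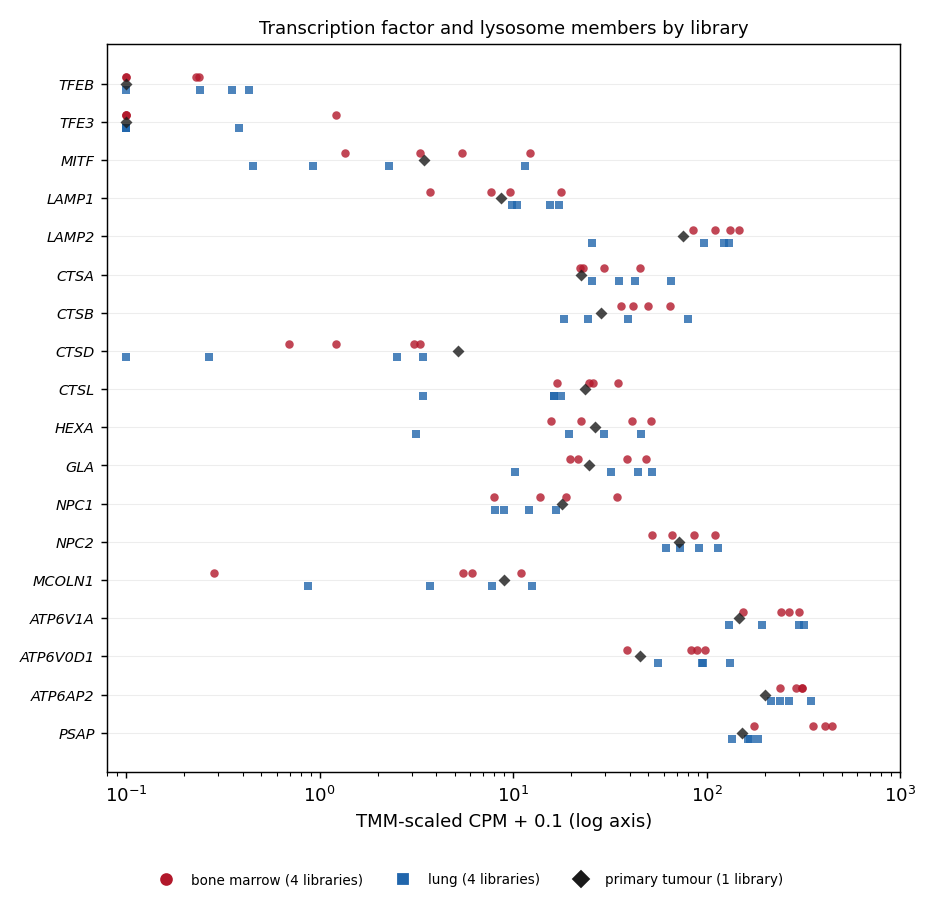
TMM-scaled CPM + 0.1 of the 3 transcription factor and 15 lysosome members on a log axis, 1 point per library, with circles for bone marrow, squares for lung and diamonds for the primary tumour. PSAP in bone marrow replicate 1, at 175 CPM, sits with the lung libraries while the other 3 bone marrow libraries lie at 354 to 445 CPM, and TFEB and TFE3 lie at the left edge, where 0 counts are drawn at 0.1.

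Among lysosome genes the lipid binding and activator protein PSAP had the smallest p of all 38 tested members. PSAP (chr10:71816298-71851375) encodes prosaposin, the precursor of the saposins that help hydrolases reach sphingolipids. It measured 175, 410, 445 and 354 CPM in bone marrow, 164, 135, 185 and 167 in lung and 152 in the primary library. Bone marrow replicates 2, 3 and 4 stood above every lung library, while bone marrow replicate 1 lay among them. The means were 346 ± 120 and 163 ± 20.7 CPM (SD, n = 4), and the log2 fold change was 1.09 ± 0.29 (SE), with an adjusted p of 0.356 by edgeR's quasi-likelihood test, 0.0473 by DESeq2 and 0.204 by limma voom. Leaving out 1 library at a time gave log2 fold changes of 0.95 to 1.33, the highest without bone marrow replicate 1, with edgeR adjusted p from 0.161 to 0.627. PSAP shares no exon sequence with another annotated gene.

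The share of reads in protein-coding features placed bone marrow replicate 1 among the lung libraries, as PSAP did. It was 45.5%, 52.2%, 51.4% and 50.8% in bone marrow replicates 1 to 4, and 45.7%, 45.3%, 44.5% and 46.4% in lung. The primary library, with PSAP at 152 CPM, had 48.5%. Reads in mitochondrial rRNA took 0.0956% to 0.218% in bone marrow and 0.359% to 0.491% in lung, a split that bone marrow replicate 1 did not cross. The macrophage and leukocyte markers, counted as human genes, summed to at most 10.4 CPM in bone marrow, in replicate 1. The part of the read shares, or of other cells, in the PSAP values was not tested.

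NPC2, which passes cholesterol to NPC1 inside the lysosome, measured 52.2 to 110 CPM in bone marrow and 61.8 to 115 CPM in lung. NPC1, the membrane partner, measured 13.6, 18.6, 7.85 and 34.4 CPM in bone marrow and 16.5, 7.95, 8.86 and 12 in lung. In the fit, the difference on the log2 scale was 0.72 ± 0.55 (SE; edgeR adjusted p 0.667). Bone marrow replicate 4 raised that difference, which was 0.24 without it. LAMP2, a membrane glycoprotein used in fusion and in chaperone-mediated autophagy, ranged from 84.4 to 148 CPM in bone marrow and from 25.4 to 131 CPM in lung, and LAMP1 from 3.60 to 17.7 and from 9.77 to 17.1 CPM. MCOLN1 ranged from 0.183 to 12.5 CPM over the metastases. None of these 5 genes separated the sites.

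Of the 6 hydrolases, 4 were higher in bone marrow and 2 lower, and none passed the edgeR test. CTSL, a cysteine protease, measured 16.7, 24.5, 34.5 and 25.7 CPM in bone marrow and 16.1, 3.31, 16.2 and 17.6 in lung, with 23.3 CPM in the primary library. The sites touched only at bone marrow replicate 1 and lung replicate 4, and lung replicate 2 stood well below the rest. For CTSL the fitted log2 fold change was 0.93 ± 0.56 (SE; edgeR adjusted p 0.560), or 0.61 without lung replicate 2. CTSB, another cysteine protease, ranged from 36.2 to 64.5 CPM in bone marrow and from 18.2 to 79.6 CPM in lung. The aspartic protease CTSD had few counts, at 0 to 5.06 CPM, and shares exon sequence with AC068580.4 on its own strand. CTSA, which protects other lysosomal enzymes, HEXA, which trims gangliosides, and GLA, which removes galactose from glycolipids, all overlapped between sites.

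The proton pump genes, whose products acidify the lysosome, were abundant at both sites. ATP6V1A, the catalytic subunit, averaged 241 ± 62.6 CPM over the bone marrow libraries and 235 ± 88.9 CPM over those of lung (SD, n = 4). ATP6AP2, an accessory protein, averaged 287 ± 33.6 and 267 ± 57.5 CPM. ATP6V0D1, a subunit of the membrane sector, averaged 77.1 ± 26.3 and 94.5 ± 31.0 CPM. The 3 fitted log2 differences ran from -0.29 to 0.11, and the smallest edgeR adjusted p was 0.828.

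**Figure D3:**
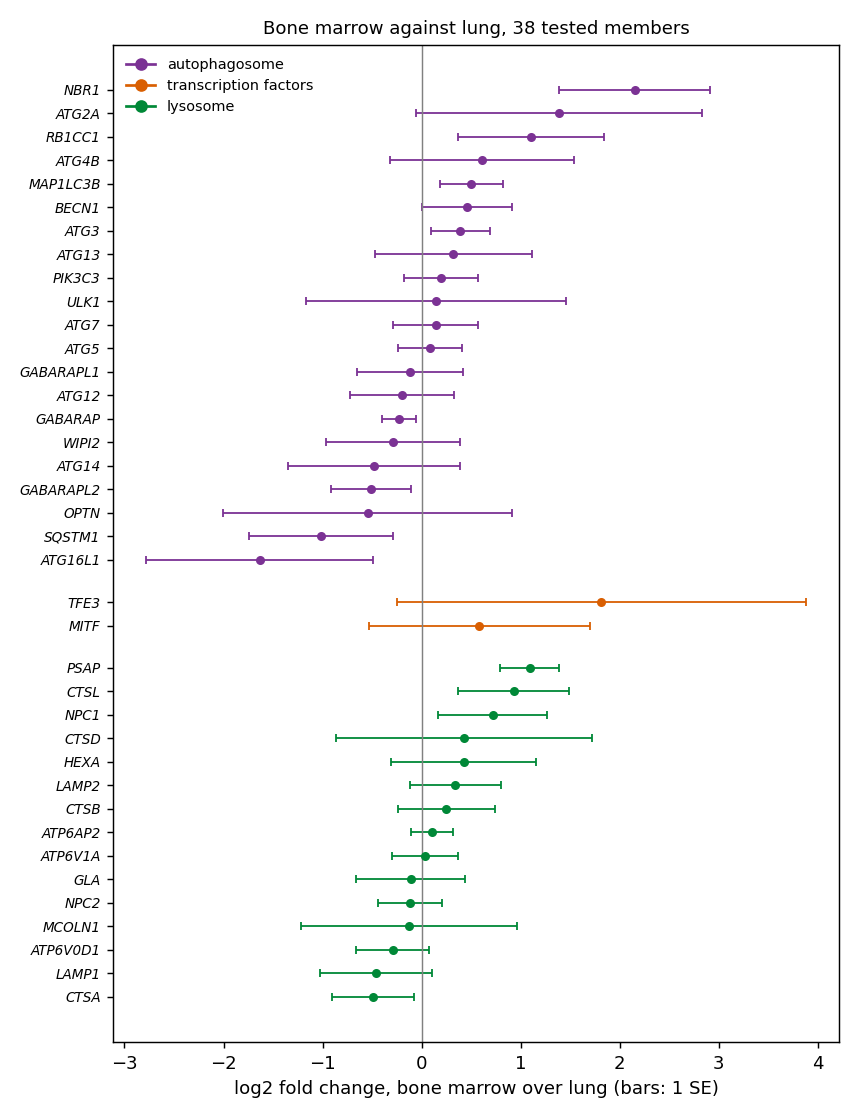
Fitted log2 fold change of each tested member in bone marrow against lung, with its standard error, autophagosome, transcription factor and lysosome members apart. The values run from -1.63 for ATG16L1 to 2.15 for NBR1, and no member passed edgeR's adjusted p of 0.05.

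Metastases were then set against the primary library, which shows only where a single library stands against the other 8 and has no replicate check. Of 38 tested members, 27 were higher in the metastases and 11 lower, and their median log2 fold change was 0.39 (0.37 with the 2 genes at 0 in the primary library, ATG14 and TFE3, set to their bounds). Across all genes 57.5% were higher, and the median of all genes was itself shifted to 0.17, so 25 of the 38 members lay above the median of all genes. TFE3 is in both counts through its fitted value, but its bound was 0.757-fold, so its direction was not shown. By list, 14 of 21 autophagosome members were higher (median 0.33) and 11 of 15 lysosome members (median 0.43). The edgeR test called 0 members (0% of all genes), DESeq2 0 (0.562% of all genes) and limma voom 0 (0.281% of all genes). At an unadjusted p of 0.05, 3 members passed edgeR's test (GABARAP, ATG14 and ATG7), against 4.79% of all genes. The primary library lay beyond all 8 metastasis libraries for 6 of 38 members, which is near the 17.6% of all tested genes with that pattern. It lay above them for ATG16L1 and CTSD (10.1% of all genes) and below them for GABARAP, ATG7, ATG14 and ATP6AP2 (7.57% of all genes).

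Among the 38 members, GABARAP had the smallest p of this comparison. Its primary value of 220 CPM stood against 436 ± 60.9 CPM over the metastases (SD, n = 8), whose lowest library had 343 CPM. The log2 fold change was 0.98 ± 0.28 (SE), or 0.81 above the median of all genes, with an adjusted p of 0.672 by edgeR's quasi-likelihood test and 0.0805 by DESeq2. ATG7 measured 5.37 CPM in the primary library, and 15.8, 29.1, 24.3 and 20.2 CPM in bone marrow. In lung, ATG7 measured 19.0, 11.3, 24.9 and 25.8 CPM, so every metastasis library was above the primary one. Its log2 fold change was 1.98 ± 0.76 (SE; edgeR adjusted p 0.969, DESeq2 0.104). ATG7 is the enzyme that activates both ATG12 and the ATG8 proteins.

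ATG14, which steers the lipid kinase complex to autophagosome sites, had no counts in the primary library. It measured 5.18, 5.62, 0.487 and 1.43 CPM in bone marrow and 5.17, 5.56, 5.79 and 1.24 in lung, with a metastasis mean of 3.81 ± 2.31 CPM (SD, n = 8). Against the limit that a count of 0 allows in that library (3 counts, 0.230 CPM), the metastasis mean of ATG14 was at least 16.6-fold higher. That bound covers counting error only and does not hold for each library, since bone marrow replicate 3 was at 0.487 CPM. The edgeR adjusted p was 0.719 and the DESeq2 adjusted p 0.0948. MAP1LC3B had the opposite sign, with a log2 fold change of -0.68 ± 0.45 (SE; edgeR adjusted p 1.00). ATP6V0D1, at 45.3 CPM in the primary library and 85.8 ± 28.2 CPM over the metastases (SD, n = 8), had a log2 fold change of 0.91 ± 0.60 (SE; edgeR adjusted p 1.00). Bone marrow replicate 1, at 38.7 CPM, was below the primary library for this gene.

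**Figure D4:**
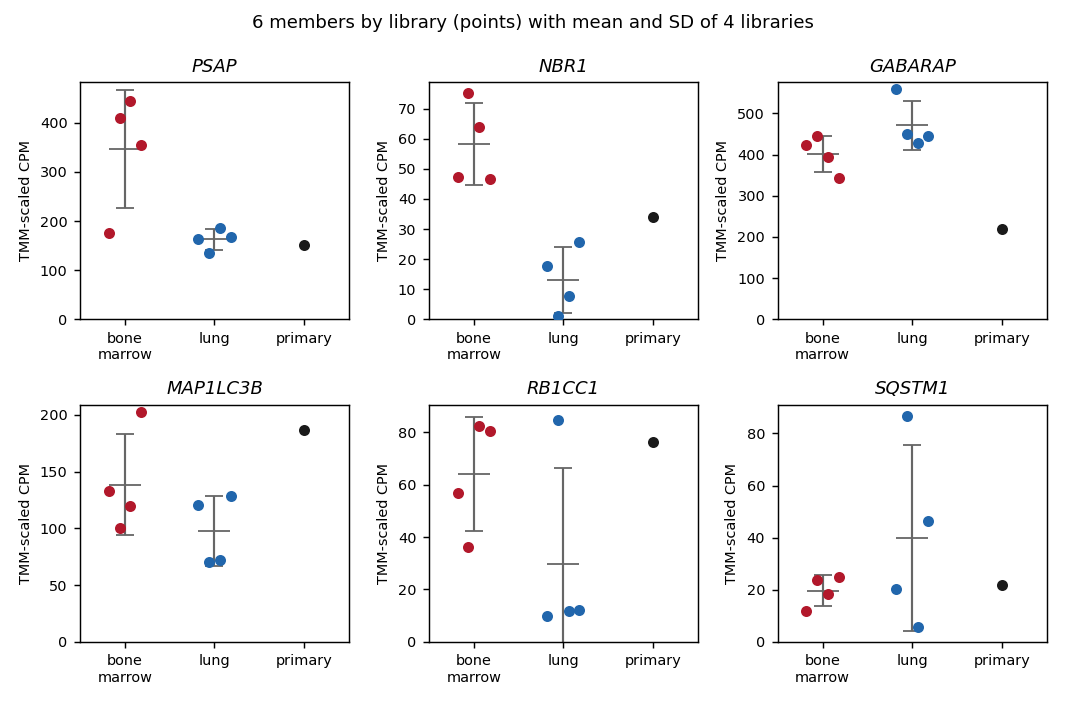
TMM-scaled CPM of 6 members by library, with a line at the mean and SD as error bars for the 4 bone marrow and 4 lung libraries, and the single primary library beside them (axes start at 0, where the lung error bar of RB1CC1 is cut off). NBR1 does not overlap between bone marrow and lung, RB1CC1 overlaps through lung replicate 2 at 84.8 CPM, and GABARAP is lowest in the primary library.

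The members differed widely in level. Per kilobase of transcript over all 9 libraries, GABARAP (252), GABARAPL2 (127), ATP6AP2 (115) and PSAP (84.6 CPM per kilobase) stood highest. ATG9A (0.00201), TFEB (0.0426), TFE3 (0.0453) and ATG2A (0.141 CPM per kilobase) stood lowest, and ULK1, OPTN, ATG14, MITF and CTSD were also below 1 CPM per kilobase. The 10 lowest members had a median GC content of 58.7% in their transcripts, and the 10 highest 45.3%. Across the 40 members the level per kilobase had a Spearman rho of -0.46 with GC content, against -0.21 across 13544 tested genes with a coding transcript. With transcript length, by which the level is divided, rho was -0.50 across the members and -0.32 across those genes. Genes are not independent replicates and all points come from the same 9 libraries, and the part of GC content or length in these levels was not tested. Of the 40 members, 20 shared exon sequence with another annotated gene, 18 of them with a gene on the opposite strand. GABARAP, ATG9A, CTSD, HEXA, NPC2 and MCOLN1 did so with a gene on their own strand. The part of such overlaps in these levels was not tested.

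Spread between libraries was compared at like levels. For the 15 members with a mean log2 CPM of 5 to 7, the median coefficient of variation was 31.9% in bone marrow and 46.5% in lung, against 34.6% and 38.8% over 2743 genes at that level. For the 5 members above a mean log2 CPM of 7 it was 26% and 19.1%, against 27.9% and 23.1%. For the 12 members from 2 to 5 it was 55.9% and 77.0%, against 56.0% and 70.2%, and for the 6 below 2 it was 91.5% and 132%, against 97.8% and 98.9%. In bone marrow the medians of the members were at or below those of other genes in all 4 bands, and in lung they were above them in the 3 lower bands and below in the highest. GABARAP, the most abundant member by CPM, had coefficients of 11% in bone marrow and 12.6% in lung.

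Beyond the 40 members, 140 other genes of the pathway were tested, from a list of 150. In bone marrow against lung 79 were higher and 61 lower, and the median log2 fold change was 0.08. For 6 of the 140 every bone marrow library was above every lung library, and for 3 below. Together this is near the 5.87% of all tested genes without overlap. The edgeR test called 0 of them at the adjusted threshold (17 had an unadjusted p below 0.05, against 10.2% of all genes), limma voom called 0 and DESeq2 called 6, against 2.74% of all genes. By group, 9 of 12 cargo receptors were higher in bone marrow (median 0.86), and 6 of 17 other V-ATPase subunits (median -0.22). Of 17 genes of lysosomal nutrient sensing and TFEB control, 7 were higher (median -0.13), and of 38 lysosomal enzymes and activators, 23 (median 0.28). BNIP3 and BNIP3L, which tag mitochondria for autophagy, were the only 2 of the 12 cargo receptors that did not overlap between the sites. Their log2 fold changes were 1.63 ± 0.39 and 1.09 ± 0.26 (SE; edgeR adjusted p 0.331 for each, DESeq2 0.0108 and 0.0138). BNIP3 was highest of all in the primary library, at 429 CPM. The other mitochondrial receptors in the group, FUNDC1, PHB2 and FKBP8, overlapped, with log2 fold changes of -0.24, -0.02 and 2.18. FKBP8 was scarce.

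Of the other genes that DESeq2 called, LAMTOR4, a subunit of the Ragulator complex that holds mTORC1 at the lysosome, measured 317, 424, 374 and 315 CPM in bone marrow and 536, 498, 582 and 593 in lung. Every bone marrow library was below every lung library, and the primary library was lower still at 238 CPM. Its log2 fold change was -0.63 ± 0.17 (SE; edgeR adjusted p 0.356, DESeq2 0.0457). SORT1, the sorting receptor that carries prosaposin and other cargo to the lysosome, measured 48.3, 38.9, 63.8 and 68.1 CPM in bone marrow and 32.4, 8.23, 11.8 and 18 in lung. It did not overlap between the sites, and its log2 fold change was 1.64 ± 0.48 (SE; edgeR adjusted p 0.387, DESeq2 0.0265).

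TPP1, a lysosomal peptidase, measured 13.1, 0, 23.4 and 30.6 CPM in bone marrow and 0.0848, 0.563, 0.166 and 0.218 in lung, with 5.22 CPM in the primary library. Bone marrow replicate 2, with no counts, lay below all lung libraries, and the other 3 lay above them. The log2 fold change of TPP1 was 5.96 ± 1.64 (SE; edgeR adjusted p 0.370, DESeq2 0.000859). TPP1 entered the test through the few libraries where it was high, and did not pass the filter without the primary library. Its p-values are therefore given as description only. FNIP2, a partner of folliculin in lysosomal nutrient sensing, measured 2.89, 1.83, 3.48 and 1.76 CPM in bone marrow and 14.9, 1.90, 13.6 and 46.6 in lung. Lung replicate 2 was inside the bone marrow range, and the log2 fold change was -2.95 ± 0.88 (SE; edgeR adjusted p 0.399, DESeq2 0.0140). ATP6V1D, a V-ATPase subunit that no tool called, ranged from 69.0 to 150 CPM in bone marrow and from 165 to 230 CPM in lung without overlap (log2 fold change -0.74 ± 0.28, SE; edgeR adjusted p 0.475).

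**Figure D5:**
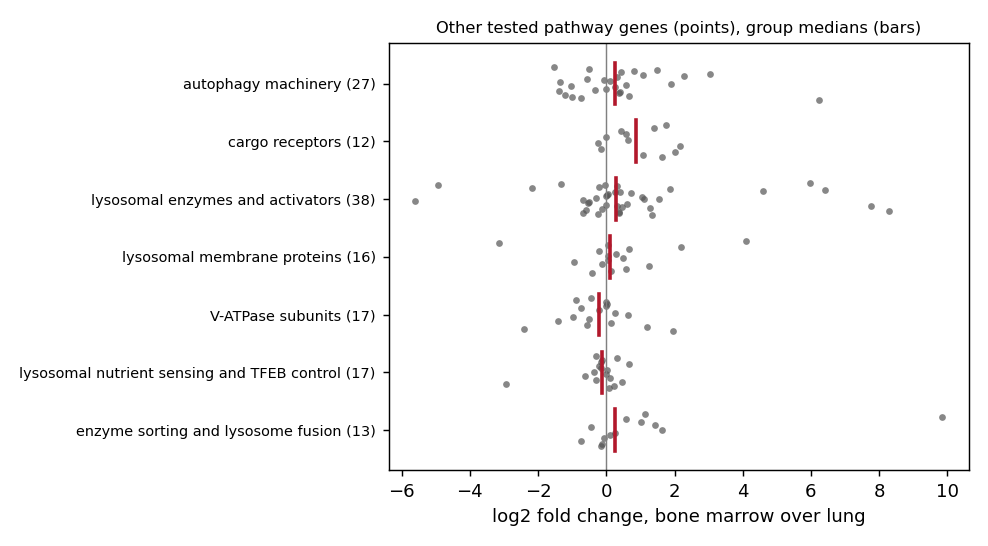
Fitted log2 fold change in bone marrow against lung of 140 other tested pathway genes, 1 point per gene, with a bar at each group's median. Group medians run from -0.22 for V-ATPase subunits to 0.86 for cargo receptors, and the fitted values of 6 genes with no counts in 1 of the sites depend on the prior count and are not bounds.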

How the data were processed

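RNA of sorted TC71 cells was sequenced from 4 bone marrow, 4 lung and 1 primary tumour library. The kit used template switching on low RNA input, per the labels' protocols. The authors deposited estimated counts per gene symbol, not scaled to depth. They also deposited the percent of reads per species, the fraction of reads per feature class and the read length (151 bases). The submitters' processing notes name Trim Galore, Salmon and hg38. The counting annotation, the strand setting and the source of the percent and fraction values are not given in the sources used here. Fractions were turned into percent.

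The members and lists were chosen with earlier results of these data known. Estimated counts were rounded, and 12 vector entries (up to 0.0133% of the counts) were kept out. After filterByExpr 17073 genes were left. With TMM factors, edgeR 4.0.16 (R 4.3.3) was run as a quasi-likelihood model of the 3 groups on the 9 libraries together. A gene was called where its two-sided p, adjusted by Benjamini-Hochberg over every tested gene, was below 0.05. The fit was tested on simulated data. A positive log2 fold change is higher in bone marrow, or in metastases when set against the primary library, and its standard error was derived from the edgeR test. Totals of 11549684 to 17910622 estimated counts limit precision for genes under a few CPM. No pair of libraries agreed within sampling noise. Lengths, loci and exon overlaps are from GENCODE on hg38.

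Every member could be named with its values. Fold changes and tests are given for the 10 members with the smallest p between sites, the 5 with the smallest p against the primary library, and any other member that a tool called. Other pathway genes were named where a tool called them, or by the 3 smallest p in either direction. FUNDC1, PHB2 and FKBP8 were named beside BNIP3 and BNIP3L as the other mitochondrial receptors. Alternatives covered scaling (median-ratio factors, or depth only), filtering (none, or 5 CPM in 4 or more libraries), the tool (DESeq2 1.42.0, or limma 3.58.1 voom with sample weights), the replicate number as a block, a fit without the primary library, and each replicate left out.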

Additional observations from a re-analysis of the deposited data

Results flagged for a closer look

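A library was singled out where it lay far from the other 3 of its site, by the 95% critical value of Dixon's test for 4 samples. Of 79 sets of 4 libraries examined, 12 did so, while the test's own rate is about 1 in 20. In 3 of the 12 (ATG9A in lung and TFE3 at both sites) the other 3 libraries had no counts, so that any count is singled out. Among tested members with counts in at least 2 libraries, 9 of 74 sets (12.2%) were singled out, against 13.8% of such sets over all tested genes. Only this pooled share is near that of other genes. By site it was 0 of 37 in bone marrow, against 12.9% over all genes, and 9 of 37 (24.3%) in lung, against 14.7% over all genes. In lung replicate 2, RB1CC1 measured 84.8 CPM (10.01 to 12.3 in the other lung libraries), OPTN 5.84 CPM (0.248 to 0.509), ATG2A 1.48 CPM (0 to 0.0848) and TFE3 0.281 CPM (0 in the others), while CTSL measured 3.31 CPM (16.1 to 17.6). In lung replicate 1, GABARAP measured 558 CPM (429 to 450), BECN1 128 CPM (32.6 to 44.8) and MITF 11.4 CPM (0.352 to 2.18). In lung replicate 4, GABARAPL2 measured 236 CPM (125 to 127), ATG14 1.24 CPM (5.17 to 5.79) and ATG9A 0.0727 CPM, which was 1 count (0 in the others). In bone marrow replicate 3, TFE3 measured 1.11 CPM (0 in the others).

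NBR1 in the primary library, at 33.8 CPM, lay below every bone marrow library and above every lung library, so the sites differed from it in opposite directions. The difference between the sites had an edgeR adjusted p of 0.446.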

How the results depend on the processing

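Of 17 alternatives for bone marrow against lung and 15 for metastases against primary, none turned the direction of a fold change given with its SE. The fold changes of FUNDC1, PHB2 and FKBP8 were not followed through the alternatives. TPP1 has values under 15 of the 17, since it did not pass the filter in the fits of the 8 metastasis libraries alone and with the replicate block. Under all but DESeq2 0 members and 0 other pathway genes were called between the sites. DESeq2 called 1 member and 6 other pathway genes there, and the cause was not tested. Members whose sites did not overlap went from 1 to 2 with library size alone, ranged from 1 to 4 when 1 library was left out, and came to 6 without both bone marrow replicate 1 and lung replicate 3, an alternative chosen after seeing the data. Fewer libraries alone make such counts larger: all genes went from 5.87% to 18.1% there. Without bone marrow replicate 1 the 4 members were NBR1, CTSL, PSAP and, lower, GABARAPL2 (13.8% of all genes). Without lung replicate 3 they were NBR1, PSAP and, lower, GABARAP and ATG16L1 (8.48%), and without lung replicate 2 NBR1, RB1CC1 and ATG13 (10% of all genes). Members with the primary library beyond the rest numbered 6 to 8 when 1 library was left out and 10 without both (25% of all genes). With the replicate number as a block, 0 members were called, the log2 fold change of PSAP was 1.00 (edgeR adjusted p 0.610) and of NBR1 2.62 (0.641), and the autophagosome median was -0.01. The labels do not say whether the numbers pair the samples. Correlations of same-numbered libraries were between -0.04 and 0.03. They cannot settle the question, since libraries from the same mouse need not vary together. Leaving out 1 library moved the autophagosome median between -0.01 (without bone marrow replicate 2) and 0.19 and the lysosome median between 0.01 and 0.24. The stricter filter gave -0.02 for the latter, so neither median keeps its sign under every setting.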
